A study of Mus musculus with 3 samples.

Results

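The genes described here are those of the interleukin-6 (IL-6) family of cytokines and of the receptors they bind: the ligand genes Il6, Il11, Lif, Clcf1 and Osm, and the receptor genes Il6st, Il6ra, Il11ra1, Lifr and Osmr. They were chosen by name, with no cutoff on their values but with earlier results of these data known. They make up 10 of the 43472 rows of the deposited table of normalized counts. The study asked how a soluble extract of skin micrografts (MG) acts on wounded skin cells, and how far this runs through MEK, ERK and the transcription factor AP-1. The 3 libraries are labelled replicates 1, 2 and 3 of 1 condition, MG + PD0325901 for 5 h. All 3 held primary fibroblasts isolated from the tail tips of C57BL/6 mice, scratched in culture as an in vitro wound, and given the MG in growth medium together with PD0325901, an inhibitor of the kinase MEK that lies directly upstream of ERK. Untreated cells and cells that received the MG alone were not analysed here, so the levels below describe the inhibited state and no condition was compared with another.

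Several features of this model bear on a secreted cytokine family. The fibroblasts were a mixed primary culture rather than a clone, and the labels give neither the age and sex of the mice nor whether a replicate was 1 animal. The MG was made from mouse skin by mechanical disruption, filtration and, per the methods of the study, a spin to remove cells, and may carry proteins that RNA-seq does not see. In bulk RNA, fewer cells of a type and less RNA per cell cannot be told apart.

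Cytokines of the IL-6 family signal through gp130, the shared receptor chain encoded by Il6st. IL-6 and IL-11 first bind a receptor of their own (IL-6Rα or IL-11Rα) that lacks signalling activity and brings them to a pair of gp130 chains. LIF and oncostatin M instead join gp130 to a second signalling chain, LIFR or OSMR, and cardiotrophin-like cytokine factor 1 (CLCF1) acts through CNTFR, LIFR and gp130. The bound complex activates JAK kinases, the transcription factor STAT3 and, through the phosphatase SHP2, the ERK cascade, while SOCS3 is induced by STAT3 and shuts the receptor off. In skin, this family is known for its parts in inflammation, fibroblast activation and wound closure.

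Of the 5 ligand genes, 4 were well expressed in these fibroblasts and Osm had no read, while among the receptor genes the shared chain Il6st had the highest level. Detection was set at 10 normalized counts in every library. It was met by 8 of the 10 members (Il6, Il11, Lif, Clcf1, Il6st, Il11ra1, Lifr and Osmr). Among members with any read this was 8 of 9, against 60.1% of the 20322 genes with any read. The libraries held 22540518, 27037783 and 17244505 reads on genes in replicates 1, 2 and 3. A count of 0 reads allows up to 3, which equals 2.61, 2.11 and 3.56 normalized counts. Reads had no molecular identifiers, so these limits and the intervals given for Il6ra and Lifr reflect counting error and nothing else.

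Because the study asks about AP-1, the 250 bases upstream of the RefSeq start sites of the members were searched for its motif, TGANTCA. RefSeq promoter entries matched 8 of the 10 members with 11 windows, and there was no entry for Clcf1 or Osm. Some windows lay largely in annotated exons. All 250 bases did so for Osmr, in its own exons, and for Il6ra, in those of the antisense transcript Gm42809. In 1 window of Il11ra1 247 bases did, and in 1 window of Il11 173 bases. An AP-1 motif was found in 3 windows, 1 each for Il6, Il11 and Lif, and in none of the windows of the receptor genes. Over all 32851 promoter windows of the same length, 6.75% held it. The 3 windows are printed here because they carry these matches, from the build GRCm38.p6, 5′ to 3′ on the strand of the gene, with every motif match in capitals. The Il6 window is chr5:30012864-30013113 on the plus strand, the Il11 window is chr7:4778142-4778391 on the minus strand, and the Lif window is chr11:4257318-4257556 on the plus strand, without its last bases, which lie in the annotated first exon.
Il6: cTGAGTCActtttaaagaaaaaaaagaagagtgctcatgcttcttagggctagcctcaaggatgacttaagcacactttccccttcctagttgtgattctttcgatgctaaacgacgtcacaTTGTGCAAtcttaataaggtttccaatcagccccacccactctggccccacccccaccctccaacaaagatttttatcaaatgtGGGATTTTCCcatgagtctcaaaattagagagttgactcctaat
Il11: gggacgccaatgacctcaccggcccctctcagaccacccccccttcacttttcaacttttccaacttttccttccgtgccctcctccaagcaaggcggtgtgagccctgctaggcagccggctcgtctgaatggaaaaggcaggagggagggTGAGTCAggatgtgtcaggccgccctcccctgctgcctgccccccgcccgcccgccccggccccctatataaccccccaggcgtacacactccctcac
Lif: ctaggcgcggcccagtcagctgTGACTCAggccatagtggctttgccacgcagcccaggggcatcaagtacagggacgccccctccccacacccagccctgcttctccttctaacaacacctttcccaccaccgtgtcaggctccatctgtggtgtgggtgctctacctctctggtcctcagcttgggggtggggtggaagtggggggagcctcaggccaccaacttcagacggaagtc

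The AP-1 match began 249 bases before the start in Il6, 98 bases before it in Il11 and 228 bases before it in Lif. Il6 alone of the 8 genes also held an NF-kB motif, here the letters GGG and TTCC with any 3 bases between them, as GGGATTTTCC at 44 bases before the start, and a C/EBP motif of the form TTGCNNAA, read on the other strand as TTGTGCAA at 128 bases. In all promoter windows the shares were 4.65% for NF-kB and 9.56% for C/EBP. None of the 11 windows held a STAT motif of the form TTCNNNGAA (7.02% of all windows) or a full cyclic AMP response element TGACGTCA (1.55%). All motifs were searched on both strands, and no 2 of the matches overlapped. A match describes the letters only, and binding was not measured here.

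A second sequence feature that the choice of members did not use was the AU-rich element in the 3′ UTR, a signal for rapid mRNA decay that is common in cytokine transcripts. The 9-letter form TTATTTATT occurred 5 times in the annotated 3′ UTR of Il11, 2 times in that of Lif and 2 times in that of Clcf1. It was absent from the 3′ UTRs of the other 7 members, and 7.67% of 11168 detected genes held it. The shorter core ATTTA occurred 14.0 times per kb in Il6, 8.35 in Il11, 5.88 in Osm, 4.32 in Clcf1 and 2.20 in Lif. All 5 ligand values lay above the median of detected genes, 1.29 per kb. Among the receptor genes, Osmr with 2.23 per kb, Lifr with 1.74 and Il6st with 1.59 were also above this median. Il6ra had 0.543 and Il11ra1 0. For each ligand gene with the longer form, the stretch around its first match is shown with all matches in capitals, 3 overlapping ones in Il11 and 1 each in Lif and Clcf1, from GRCm38 at chr7:4773502-4773530 (minus strand) for Il11, chr11:4272039-4272067 (plus strand) for Lif and chr19:4223398-4223426 (plus strand) for Clcf1.
Il11: aaaccagatcTTATTTATTTATTTATTtt
Lif: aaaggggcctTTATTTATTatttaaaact
Clcf1: gtattaatatTTATTTATTtggagatgtt

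Il6 (chromosome 5, 30013114 to 30019981, plus strand) encodes the founding cytokine of the family, a product of wound fibroblasts and macrophages. Replicates 1, 2 and 3 gave 788, 1430 and 1491 normalized counts, with a mean of 1237 ± 389 (SD, n = 3). Replicate 1 lay below the other two, which were 1.04-fold apart. These 2 libraries did not differ beyond counting error (exact binomial test on reads, two-sided, Benjamini-Hochberg adjusted p = 0.318), whereas replicate 1 differed from each of them.

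Il11 (chromosome 7, 4772373 to 4782859, minus strand) encodes IL-11, a cytokine of stromal cells that promotes matrix production. Its normalized counts were 1605, 1992 and 1079, with a mean of 1558 ± 458 (SD, n = 3). Here replicate 3 was lowest and replicate 2 highest, 1.85-fold apart.

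Clcf1 (chromosome 19, 4214238 to 4223490, plus strand) encodes CLCF1 and had the smallest spread of the detected members. Its normalized counts were 2252, 2021 and 1365, with a mean of 1879 ± 460 (SD, n = 3). The order of the libraries differed from that of Il6, with replicate 1 highest and replicate 3 lowest, 1.65-fold apart.

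Lif (chromosome 11, 4257557 to 4272514, plus strand) encodes leukemia inhibitory factor and varied most among the ligand genes. It had 2931 normalized counts in replicate 1, 1069 in replicate 2 and 4685 in replicate 3, with a mean of 2895 ± 1809 (SD, n = 3). Replicate 2 was lowest by far, and replicate 3 was 4.38-fold above it, whereas replicates 1 and 3 were 1.60-fold apart. The counting error of the library with the fewest reads was 2.57%, so the spread between libraries was far wider than counting error. The SD of log2(normalized count + 1) was 1.09, larger than that of 96.4% of all detected genes and of 98.6% of the 2174 detected genes whose mean lay within 2-fold of Lif.

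Osm (chromosome 11, 4236420 to 4241026, plus strand) encodes oncostatin M, made mostly by leukocytes, and had 0 reads in each library. It lies 16.5 kb from Lif on the same strand with no protein-coding gene in between. Its neighbour Lif had 3375, 1517 and 3953 reads.

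**Figure D1:**
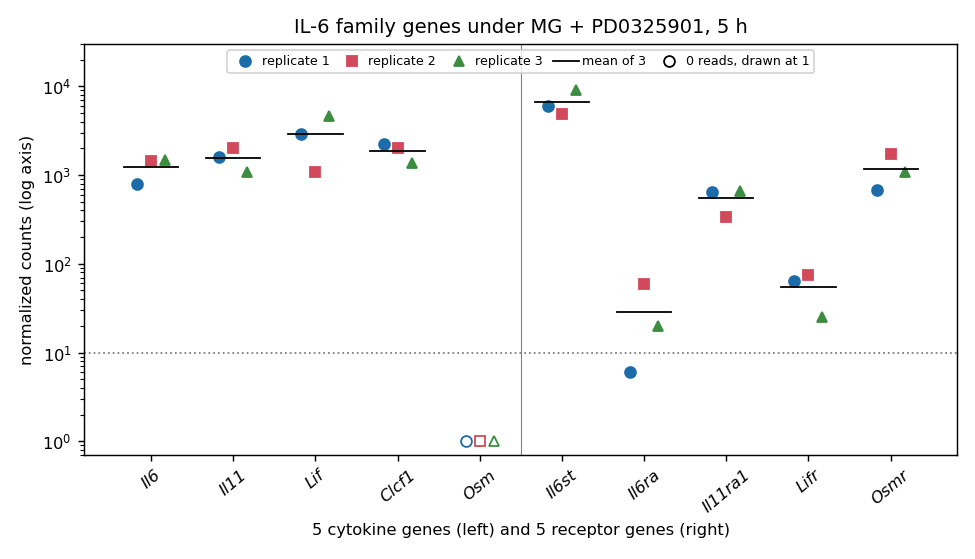
Normalized counts (log axis) of the 10 members in the 3 MG + PD0325901 libraries, ligand genes on the left and receptor genes on the right, with a point per replicate, a line at the mean of 3 and a dotted line at the detection minimum of 10. Il6st lay highest, between 4848 and 9128, Lif had the widest spread of the detected ligands, and Osm had 0 reads in every library (open points drawn at 1).

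Il6st (chromosome 13, 112464070 to 112510086, plus strand), the gene of gp130, had 6005, 4848 and 9128 normalized counts, with a mean of 6661 ± 2214 (SD, n = 3). This was the highest mean count of the 10 members, and 97.6% of the genes with reads had a lower one. Replicate 3 was highest and replicate 2 lowest, 1.88-fold apart.

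Il11ra1 (chromosome 4, 41699989 to 41769474, plus strand) encodes the receptor that binds IL-11. It had 650, 338 and 665 normalized counts, with a mean of 551 ± 184 (SD, n = 3). Replicates 1 and 3 did not differ beyond counting error (exact binomial test, adjusted p = 0.757), and replicate 2 was below both. Il11ra1 has close copies in the mouse genome, and 46.3% of the 50-base sequences in its annotated exons were shared with transcripts of Gm13305 or Il11ra2. Since the authors kept uniquely aligned reads, reads from those stretches may be missing from its count. Il11ra2 had 0 reads in each library, and Gm13305 had 1, 0 and 1 read. An exon of Il11ra1 also overlaps Ccl27a on the other strand, which had 46.9, 35.2 and 40.3 normalized counts, and the sources used here do not say whether counting used the strand.

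Il6ra (chromosome 3, 89864059 to 89913196, minus strand), the gene of the receptor that binds IL-6, was close to the limit of detection. It had 7, 84 and 17 reads in replicates 1, 2 and 3, equal to 6.08, 59.2 and 20.1 normalized counts. The exact 95% Poisson intervals ran from 2.44 to 12.5, from 47.2 to 73.3 and from 11.7 to 32.3 normalized counts. Replicate 2 lay above both others, and the interval of replicate 1 overlapped that of replicate 3. In normalized counts, replicate 2 was 9.74-fold above replicate 1 (exact binomial test on reads, adjusted p = 4.08e-14). Replicate 3 was 3.31-fold above replicate 1 (exact binomial test on reads, adjusted p = 0.0141). An antisense transcript, Gm42809, overlaps Il6ra in the annotation, so that reads of either could not be told apart without strand.

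Lifr and Osmr, the genes of the partner chains that join gp130, are neighbours on chromosome 15, 216 kb apart and on opposite strands with no protein-coding gene in between. Lifr (7090614 to 7197489, plus strand) had 64.3, 74.7 and 24.9 normalized counts, from 74, 106 and 21 reads, with a mean of 54.6 ± 26.3 (SD, n = 3). The exact 95% Poisson intervals of replicates 1 and 2 overlapped, from 50.5 to 80.7 and from 61.1 to 90.3, and that of replicate 3 lay below both, from 15.4 to 38.0. Osmr (6813577 to 6874969, minus strand) had 685, 1726 and 1079 normalized counts, with a mean of 1163 ± 526 (SD, n = 3). Replicate 2 was 2.52-fold above replicate 1, with replicate 3 between them, 1.57-fold above replicate 1. The receptor of oncostatin M was thus well expressed in libraries in which its ligand gene had no read.

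Levels of different genes were compared per kb of annotated exon, since a longer transcript collects more reads. By this measure the members fell into 4 levels. The upper level held the 4 expressed ligand genes and Il6st: Il11 with 749 ± 220 normalized counts per kb, Lif with 666 ± 416, Il6st with 600 ± 199, Il6 with 509 ± 160 and Clcf1 with 494 ± 121 (SD, n = 3). No neighbours within these 5 kept their order in all 3 libraries. Il11 ranked first of the 10 in replicates 1 and 2 and had rank 4 in replicate 3, where Lif ranked first.

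Il11ra1 with 123 ± 41.2 and Osmr with 96.0 ± 43.4 normalized counts per kb (SD, n = 3) formed the next level, and did not stand in the same order in all libraries. Lifr with 5.07 ± 2.44 and Il6ra with 3.29 ± 3.18 came below them, also without a fixed order, and Osm was at 0. The steps from Clcf1 to Il11ra1, from Osmr to Lifr and from Il6ra to Osm were the only ones between neighbours that held in all 3 libraries. Per kb, Il6st lay 769-fold, 63.8-fold and 353-fold above Il6ra in replicates 1, 2 and 3, and 3.72-fold, 5.77-fold and 5.53-fold above Il11ra1. Its ratio to Osmr was 9.57, 3.07 and 9.24. These ratios were smaller over the principal transcripts described next, at 381, 31.6 and 175 for Il6ra, 2.14, 3.32 and 3.18 for Il11ra1, and 5.55, 1.78 and 5.35 for Osmr.

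**Figure D2:**
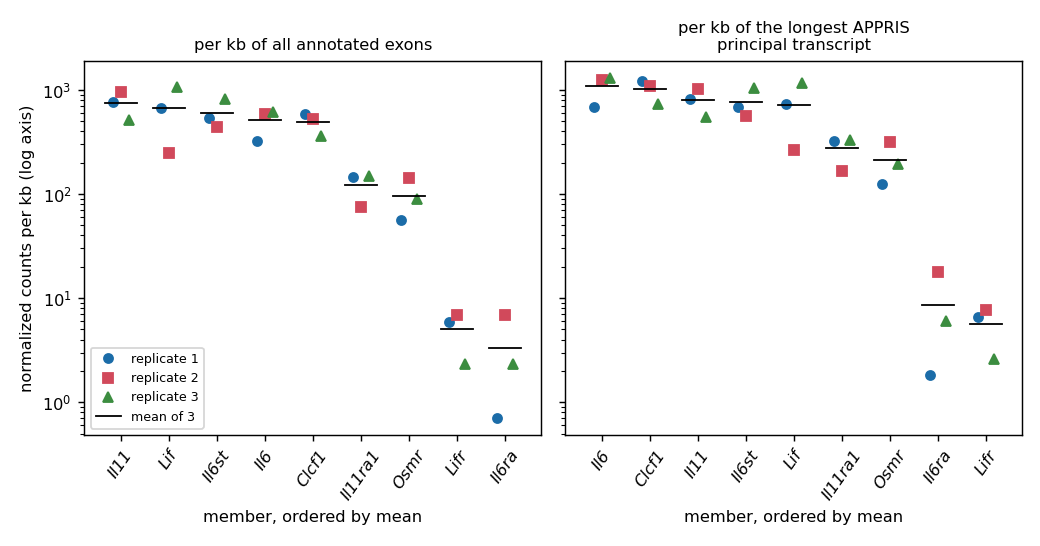
Normalized counts per kb (log axis) of the 9 members with reads, ordered by their mean, over the length of all annotated exons (left) and of the longest transcript marked as principal by APPRIS, an annotation of the main protein isoform (right), with a point per replicate and a line at the mean of 3. With either length the ligand genes and Il6st held the upper 5 places, Il11ra1 and Osmr the next, and Lifr and Il6ra the last.

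The order inside the upper level depended on the length used. Over the longest APPRIS principal transcript, which for Il6 is 1.14 kb against 2.43 kb for all exons together, Il6 came first with 1084 ± 341 normalized counts per kb (SD, n = 3), followed by Clcf1 with 1017 ± 249 and Il11 with 800 ± 235. The membership of the levels by mean was the same with both lengths. In replicate 2 alone, Osmr with 314 per kb of this transcript stood above Lif with 265.

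Among the ligand genes, the summed level per kb was close in the 3 libraries while its makeup was not. The sums were 2361, 2323 and 2568 normalized counts per kb of exon in replicates 1, 2 and 3, and averaged 2417 ± 132 (SD, n = 3). Lif contributed 28.5%, 10.6% and 41.9% of them, and Il11 32.7%, 41.2% and 20.2%. Il6 made up 13.8%, 25.4% and 23.9%, and Clcf1 25.1%, 22.9% and 14.0%. Over this length the largest share belonged to Il11 in replicates 1 and 2 and to Lif in replicate 3. Over the principal transcripts the sums were 3461, 3635 and 3763 (3620 ± 152), and the largest share belonged to Clcf1 in replicate 1 (35.2%) and to Il6 in replicates 2 and 3 (34.5% and 34.7%). Lif contributed 21.0%, 7.30% and 30.9% of these sums, and was lowest in replicate 2 with either length. Without division by length the ligand sums lay further apart, at 7575, 6512 and 8620 normalized counts in replicates 1, 2 and 3. Of the summed receptor level per kb of exon, Il6st gave 72.2%, 65.3% and 77.2%, and Osmr gave 7.55%, 21.3% and 8.36%.

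Differences between libraries of 1 condition were tested on reads, and such tests cover counting error and compare libraries, not conditions. Of the 9 members with enough reads, 8 differed between replicates 1 and 2 (exact binomial test, two-sided, adjusted p below the threshold of 0.05), against 69.1% of all genes tested. Lifr was the exception, with an adjusted p of 0.391. Between replicates 1 and 3, 8 of 9 differed against 52.0% of genes, all but Il11ra1. Between replicates 2 and 3, 8 of 9 differed against 62.6%, all but Il6. With a difference of more than 2-fold asked as well, 3, 2 and 3 members remained, against 20.3%, 9.27% and 16.4% of the genes tested. The test finds smaller differences where reads are more, and these shares of all genes were not matched for level. Except for Il6ra and Lifr, each tested member had a mean above that of at least 71.2% of genes with reads.

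Of the 8 detected members, 3 (Lif, Lifr and Osmr) spanned more than 2-fold from lowest to highest library, as did 21.6% of the 12204 detected genes. The other 5 lay between 1.65-fold and 1.97-fold. Without replicate 2 only Lifr remained above 2-fold, with 6.39% of detected genes. Over these 8 members the SD of log2(normalized count + 1) had a median of 0.53, and over all detected genes one of 0.30. Clcf1, with the smallest SD of the 8, still exceeded 63.6% of detected genes. The members did not share an order of the libraries. Replicate 2 was lowest for 3 of them (Lif, Il6st and Il11ra1), replicate 1 for 2 (Il6 and Osmr) and replicate 3 for 3 (Il11, Clcf1 and Lifr), and the shares of all detected genes were 37.3%, 34.5% and 28.3%. Replicate 1 was highest for 1 member (Clcf1), replicate 2 for 3 (Il11, Lifr and Osmr) and replicate 3 for 4 (Il6, Lif, Il6st and Il11ra1), against 31.5%, 40.6% and 27.9% of all detected genes.

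**Figure D3:**
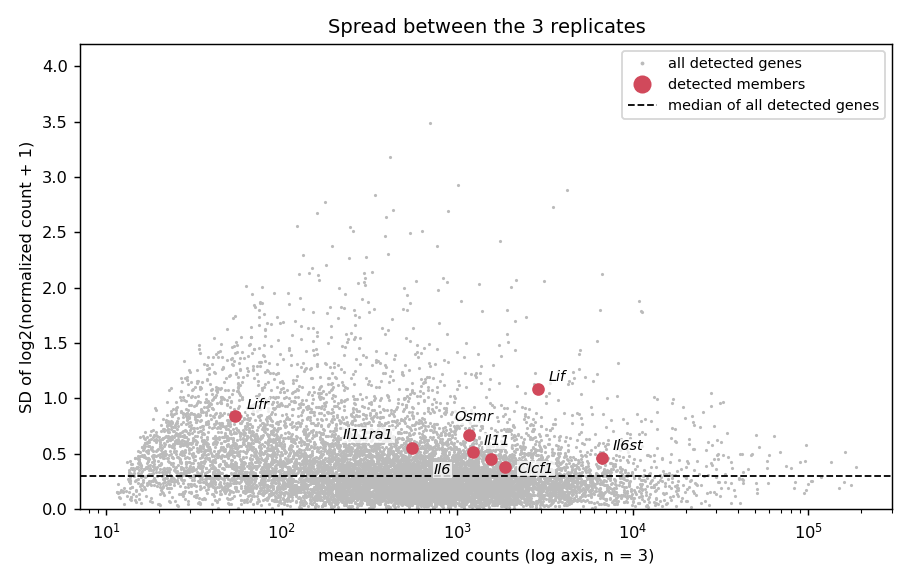
SD of log2(normalized count + 1) between the 3 replicates against the mean normalized count (log axis, n = 3), for all 12204 detected genes (grey) and the 8 detected members (red), with a dashed line at the median of all detected genes, 0.30. All 8 members lay above this line, Lif highest at 1.09.

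The genes whose pattern over the 3 libraries was most like that of Lif were Plau, Fxyd5, Tlr2, Epha2 and Socs3, at a Euclidean distance between centred log2 values of 0.06 to 0.09. Of 9991 genes with a mean of at least 100 normalized counts, 16 lay within 0.25 of Lif, against 201 for Il6 and 303 for Il11. The distance was not scaled to the spread of a gene, and Lif had a wider spread than Il6 and Il11. These counts therefore cannot say how common each pattern was. Plau, the gene of the urokinase plasminogen activator, had 28792, 10676 and 44245 normalized counts. The nearest genes to Il6 were Polr1b, Helz2, Flna, Wdr24 and Fam46b, and those to Il11 were Gyk, Pmp22, Amer1, Orc4 and Spats2l. With 3 libraries of 1 condition, likeness of this kind describes these libraries alone.

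Of 10 other ligand and receptor genes of the family, 7 had reads and 2 were detected. Cntfr, the gene of a receptor chain for CLCF1, had 19.1, 62.7 and 23.7 normalized counts, and Ctf1, the gene of cardiotrophin 1, had 72.9, 59.9 and 24.9. The other 8 lay between 0 and 45.1, the highest being Il27ra in replicate 2. Clcf1 was therefore well expressed, while 2 of the 3 receptor chains of its product, CNTFR and LIFR, had few reads. Adam10 and Adam17, the proteases that shed IL-6Rα from the cell surface, had 1714, 2189 and 1735 and 860, 1121 and 954 normalized counts.

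The signalling genes downstream of gp130 were all present. Of 10 genes of the JAK, STAT and SHP2 steps, 10 were detected, and 1, Stat5a, had a range over 2-fold (288, 583 and 309 normalized counts). Stat3, the main transcription factor of the pathway, had 3377, 4984 and 4233 normalized counts, and Jak1, the main kinase bound to gp130, had 3599, 5617 and 3529. Ptpn11, the gene of SHP2, had 4805, 7258 and 6737. Replicate 2 was the highest library for 7 of the 10, and for 40.6% of all detected genes.

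The feedback and target genes were ordered differently. Of 4 feedback inhibitors 4 were detected, and 3 of them were lowest in replicate 2 (Socs1, Socs3 and Cish), as were 37.3% of all detected genes. Socs3 had 625, 225 and 1073 normalized counts, a 4.77-fold range with the same order of libraries as Lif, and Socs1 had 65.1, 23.3 and 59.3. Socs2 was instead lowest in replicate 3, with 729, 626 and 440. Of 15 genes known to respond to STAT3, 14 were detected, 7 had a range over 2-fold (21.6% of all detected genes) and 9 were lowest in replicate 2 (37.3%). Cebpb had 1137, 272 and 897 normalized counts, Cebpd 1927, 392 and 1767, and Timp1 62668, 27514 and 60429. By contrast, Hif1a had 8533, 12221 and 11690, lowest in replicate 1, and Pim1 had 762, 521 and 303, lowest in replicate 3. Of the 14, 3 were lowest in replicate 1 and 2 in replicate 3. The median of log2 values centred on each gene was -0.36 for the STAT3-responsive genes in replicate 2 and -0.62 for the feedback inhibitors, where the JAK and STAT genes had 0.25 and all detected genes 0.02. Most of these target genes also respond to other signals, such as NF-kB and AP-1, and activity of STAT3 was not measured.

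**Figure D4:**
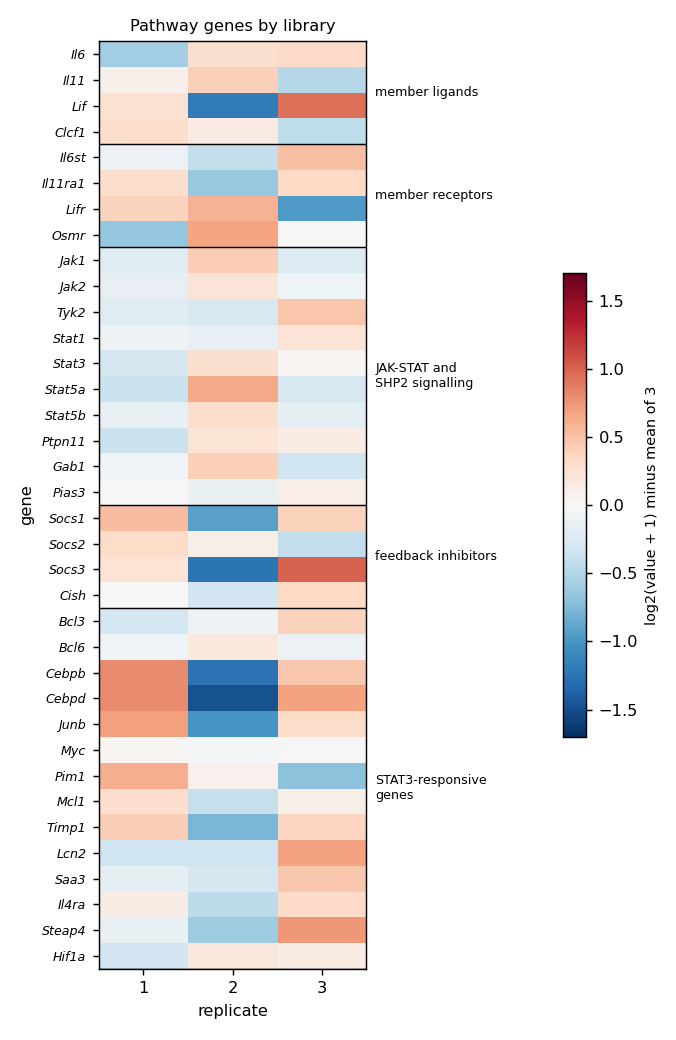
Log2(normalized count + 1) minus the mean of the 3 replicates (color scale) for the detected ligand and receptor genes and the pathway genes downstream, with a row per gene and a column per replicate. Lif, Socs3, Cebpb and Cebpd share a low value in replicate 2, while 7 of the 10 JAK, STAT and SHP2 genes were highest there.

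Most regulators of Il6 showed smaller differences than Il6 itself. All 6 were detected and none had a range over 2-fold. The range of Zc3h12a came close, at 1.97-fold, and was wider than the 1.89-fold of Il6. Zc3h12a, whose product Regnase-1 degrades Il6 mRNA, had 1527, 1533 and 3002 normalized counts, and was highest in replicate 3, as was Il6. Zfp36, which encodes tristetraprolin, a protein that binds AU-rich elements, had 1147, 1078 and 901 normalized counts. Nfkbiz, which encodes IκBζ, a coactivator of Il6 transcription, had 3923, 2971 and 4201.

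Markers of fibroblasts were detected in 9 of 9 cases, and 6 of them stayed within 2-fold, such as Vim with 85416, 94183 and 104067 normalized counts. The other 3 were Dcn, Lum with 5073, 289 and 1164, and Thy1 with 2031, 15760 and 1652. Of 11 leukocyte markers, 10 were in the table and 3 were detected (Cd68, Csf1r and Lyz2), with sums of 213, 299 and 864 normalized counts over the list. Ptprc, which encodes the leukocyte antigen CD45, was at or below 1.74 in each library and Cd3e at 0. Lyz2 alone gave 123, 62.7 and 601 of these sums. Laptm5 (1.74, 4.93 and 36.7) and Tyrobp (0, 2.11 and 15.4), below detection, were also highest in replicate 3. So were Cd52 (0.868, 0.705 and 9.48) and Itgam (0, 2.11 and 8.30). Csf1r (57.3, 179 and 161), Cd68 and Ly6g were highest in replicate 2, and Ptprc in replicate 1. The leukocyte sum was highest in replicate 3, as were Il6, Lif, Il6st and Il11ra1, and lowest in replicate 1, as were Il6, Il6ra and Osmr. Keratinocyte markers summed to 86.0, 40.9 and 36.7 normalized counts, with 1 of 6 detected (Krt10) and Krt15 and Krt1 at 0. Endothelial markers summed to 90.3, 244 and 55.7, with 1 of 5 detected (Egfl7). The endothelial sum was highest in replicate 2, as were Il11, Il6ra, Lifr and Osmr. Tek gave 185 of it there, and 6.95 and 2.37 in replicates 1 and 3. Egfl7, with 69.5, 53.6 and 49.8 normalized counts, was instead highest in replicate 1, as were Pecam1 and Kdr, and Cdh5 had 1 read, in replicate 3. The part of these other cell types, or of a different mixture of fibroblasts, in the levels of the members was not tested.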

How the data were processed

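RNA-seq of 3 libraries of 1 condition was used. Per the methods of the study and its processing notes, the authors aligned single-end reads of 50 bases to mm10 with TopHat2 2.0.13, kept uniquely aligned reads and counted them per gene with HTSeq 0.5.3p3. The gene annotation and strand setting are not given in the sources used here. The deposited values are a signal, normalized counts, for which the authors divided reads by a size factor of each library (their notes name DESeq). All values were whole multiples of 1 read (tolerance 0.01), so reads were recovered, with size factors of 1.15, 1.42 and 0.844. A further 3 columns of per-sample values could not be assigned to a sample and were not used.

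TMM factors came from edgeR 4.0.16 (R 4.3.3), and all else from numpy 2.4.6, pandas 2.3.3 and scipy 1.17.1 under Python 3.11.15. The log2 values had a pseudocount of 1. Pairs of libraries were compared by exact binomial tests on reads for every gene that had 10 or more in both together, with Benjamini-Hochberg adjustment over all of these, and the steps were tested on simulated data. The labels call the libraries replicates and do not say whether these are biological. Positions, exon lengths and 3′ UTRs (longest APPRIS principal transcript) came from GENCODE M21 (GRCm38) and promoters from RefSeq (GRCm38.p6).

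The members and lists were chosen with earlier results of these data known. All members were named, and of each list up to 5 genes of the highest mean and up to 5 of the widest range. A result for 1 list is not reported here. The alternatives were other scalings, minimums, pseudocounts, fold limits and lengths, and each replicate left out. Lengths without shared 50-base sequences and of principal transcripts were added after seeing the data.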

Additional observations from a re-analysis of the deposited data

How the results depend on the processing

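Under TMM scaling, equal totals, other detection minimums and other pseudocounts, 8 or 9 members were detected, 3 or 4 had a range over 2-fold and 3 were lowest in replicate 2. With 1 replicate left out, the median SD over the members lay between 0.41 and 0.65. The count of members with a range over 2-fold was 8 at a limit of 1.5-fold, where 48.5% of detected genes passed, and 1 at a limit of 3-fold (7.70%). With 1 replicate left out it lay between 1 and 3, and was 1 without replicate 2 (Lif and Osmr no longer passed, Lifr did), where 6.39% of genes passed. Of the members that differed between libraries, 3, 2 and 3 were also more than 2-fold apart in the pairs 1 and 2, 1 and 3, and 2 and 3. The place of a member in the order per kb was kept by 4 of 10 members over the longest transcript, by 3 of 10 over the longest APPRIS principal transcript, and by 5 to 8 with 1 replicate left out (5 without replicate 2). The mean per kb of Il11ra1 was 229 without the 50-base sequences it shares with other genes. A scan of the whole genome for such sequences was planned and not run, and annotated transcripts were used instead. Lifr and Il6ra rest on as few as 21 and 7 reads in 1 library, which limits what can be said of them. No paired analysis was possible because the libraries belong to 1 condition.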
